A study of Mus musculus with 20 samples.

Results

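Aminoacyl-tRNA synthetases are the enzymes that load each transfer RNA with its amino acid. The genes described here are 36 mouse synthetase genes, 20 for enzymes of the cytosol and 16 for enzymes of the mitochondrion, which were chosen by name from the 55335 genes in the deposited files. All 36 were found through their Ensembl identifiers, with Mars1 listed as Mars in the GENCODE vM21 annotation. All 36 passed the filter on low values, which asked for at least 1 FPKM (fragments scaled by transcript length and library size) in at least 5 of the 20 libraries and which 13982 genes passed.

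RNA was sequenced from whole tumours of CT26, a BALB/c mouse line derived from a colon carcinoma. The 4 groups, each of 5 tumours, were POLE-mutant tumours with anti-PD-1, POLE-mutant tumours with PBS, vector tumours with anti-PD-1 and vector tumours with PBS, where vector cells carry the control genotype. Anti-PD-1 is an antibody to PD-1, an inhibitory receptor on T cells, and POLE is the gene of the catalytic chain of a replicative DNA polymerase, epsilon. The labels give no allele, dose, schedule or animal age. They name no separate clones, so effects of the mutant and of any other difference that separates these cells from vector cells cannot be told apart, and the series title names CHEK2 where the labels name POLE. Nothing beyond the stated 5 mice per group says how the replicates were made, so p-values measure the spread between these tumours.

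Cells short of amino acids, or under stress that acts through the kinases of eIF2, make more of the transcription factor ATF4. ATF4 raises genes of amino acid synthesis and uptake and a subset of the cytosolic synthetases, whereas the mitochondrial synthetases serve the small set of proteins translated inside the organelle. Wars, the cytosolic tryptophanyl-tRNA synthetase, is set apart because interferon-gamma induces it. Gars and Kars each encode both a cytosolic and a mitochondrial enzyme, and several cytosolic enzymes sit together in the multisynthetase complex on the scaffold proteins Aimp1, Aimp2 and Eef1e1.

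Promoter sequences are shown because 11 cytosolic synthetases from an ATF4 list moved together in these tumours. The list holds Aars, Cars, Eprs, Gars, Iars, Lars, Mars1, Nars, Sars, Tars and Yars. Windows run from 250 bases before to 30 bases after the RefSeq start (GRCm38.p6, written 5′ to 3′ on the gene's strand). Capitals mark TGATGNAA, the core of the C/EBP-ATF response element that ATF4 binds, searched on both strands, so that it can also read as its reverse complement. It was in 5 of the 8 ATF4-list members with a window, in 0 of 5 other cytosolic members and in 0 of 14 mitochondrial members, beside 3.81% of all 32851 promoters. Among 24 other ATF4-linked genes 21 had a window, and 6 of these held the core. The list was chosen as ATF4-linked and with earlier results of these tumours known, so this contrast between classes is not independent of the choice. The 5 members with a match are the alanyl, glycyl, isoleucyl, threonyl and tyrosyl enzymes.
Aars, chr8:111033592-111033871, plus strand: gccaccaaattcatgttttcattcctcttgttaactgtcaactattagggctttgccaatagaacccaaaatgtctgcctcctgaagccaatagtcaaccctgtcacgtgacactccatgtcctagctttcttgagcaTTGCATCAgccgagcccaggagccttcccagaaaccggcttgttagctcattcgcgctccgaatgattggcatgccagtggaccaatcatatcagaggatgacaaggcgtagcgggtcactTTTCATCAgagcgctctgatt
Gars, chr6:55037751-55038030, plus strand: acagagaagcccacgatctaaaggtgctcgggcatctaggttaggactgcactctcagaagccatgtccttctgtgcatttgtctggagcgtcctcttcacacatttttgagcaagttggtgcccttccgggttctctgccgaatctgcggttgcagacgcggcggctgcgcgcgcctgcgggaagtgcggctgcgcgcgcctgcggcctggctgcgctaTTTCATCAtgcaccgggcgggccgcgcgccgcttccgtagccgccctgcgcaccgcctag
Iars, chr13:49681880-49682159, plus strand: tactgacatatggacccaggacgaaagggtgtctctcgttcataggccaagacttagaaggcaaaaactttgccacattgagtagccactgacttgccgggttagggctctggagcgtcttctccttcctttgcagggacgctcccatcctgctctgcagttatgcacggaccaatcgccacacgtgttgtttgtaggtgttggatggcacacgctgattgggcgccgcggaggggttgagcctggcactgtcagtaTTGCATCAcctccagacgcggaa
Tars, chr15:11399629-11399908, minus strand: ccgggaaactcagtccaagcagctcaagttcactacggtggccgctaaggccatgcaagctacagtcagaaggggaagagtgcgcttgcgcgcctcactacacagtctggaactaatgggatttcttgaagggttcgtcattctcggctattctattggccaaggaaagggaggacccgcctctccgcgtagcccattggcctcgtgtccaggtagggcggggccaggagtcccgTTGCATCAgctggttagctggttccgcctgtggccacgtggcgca
Yars, chr4:129189653-129189932, plus strand: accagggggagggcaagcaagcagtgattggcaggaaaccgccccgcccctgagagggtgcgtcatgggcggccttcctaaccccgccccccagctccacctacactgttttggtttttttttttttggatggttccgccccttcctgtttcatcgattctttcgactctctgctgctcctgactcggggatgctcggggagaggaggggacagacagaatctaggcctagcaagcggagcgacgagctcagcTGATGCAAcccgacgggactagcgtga
The mitochondrial enzymes for threonine and isoleucine are shown beside them, and their windows hold no match.
Tars2, chr3:95754948-95755227, minus strand: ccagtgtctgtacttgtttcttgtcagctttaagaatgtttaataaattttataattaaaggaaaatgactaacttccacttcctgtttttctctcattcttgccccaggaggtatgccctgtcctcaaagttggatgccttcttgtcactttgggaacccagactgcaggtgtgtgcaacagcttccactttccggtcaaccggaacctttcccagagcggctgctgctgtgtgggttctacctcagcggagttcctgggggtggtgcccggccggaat
Iars2, chr1:185329372-185329651, minus strand: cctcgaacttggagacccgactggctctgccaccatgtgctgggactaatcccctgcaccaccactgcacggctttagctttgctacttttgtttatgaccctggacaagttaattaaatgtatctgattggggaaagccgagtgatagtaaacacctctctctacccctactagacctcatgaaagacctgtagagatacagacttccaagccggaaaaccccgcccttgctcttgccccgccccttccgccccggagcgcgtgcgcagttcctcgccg
Measured from the start, the matches of Aars lay at -112 and 10, and the single matches lay at -30 in Gars, 8 in Iars, -15 in Tars and 4 in Yars. Among the windows shown, the 30 bases after the start were in a GENCODE vM21 transcript of the gene, except for Gars and Iars2. No window was given for Cars, Hars, Lars, Nars, Rars, Vars, Wars, Hars2 and Pars2. Of 2 interferon motifs searched on both strands, the interferon-stimulated response element (GAAA, any 2 bases, GAAA) was in Qars, beside 3.28% of all promoters. TTCNNNGAA (the gamma-activated site) was in Aars, Kars and Nars2, beside 7.83% of all promoters. A match is a description of the letters, not of binding, and a window without one says only that the letters are not there.

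Across all 20 tumours the cytosolic synthetases were the more abundant class. On the FPKM scale, which is per length, their mean levels ran from 8.83 for Yars, the tyrosyl enzyme, to 92.9 for Gars, the glycyl enzyme, with a median of 32.8. The mitochondrial synthetases ran from 1.04 for Pars2, the prolyl enzyme, to 9.07 for Iars2, the isoleucyl enzyme, with a median of 2.60, while the median over all tested genes was 6.27. Only Yars among the 20 cytosolic genes lay below the highest mitochondrial one. Changes are given as log2 fold changes on the log2(FPKM + 1) scale with the SE, which understates changes of genes near 1 FPKM, so ratios of mean FPKM are given for the classes too.

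**Figure D1:**
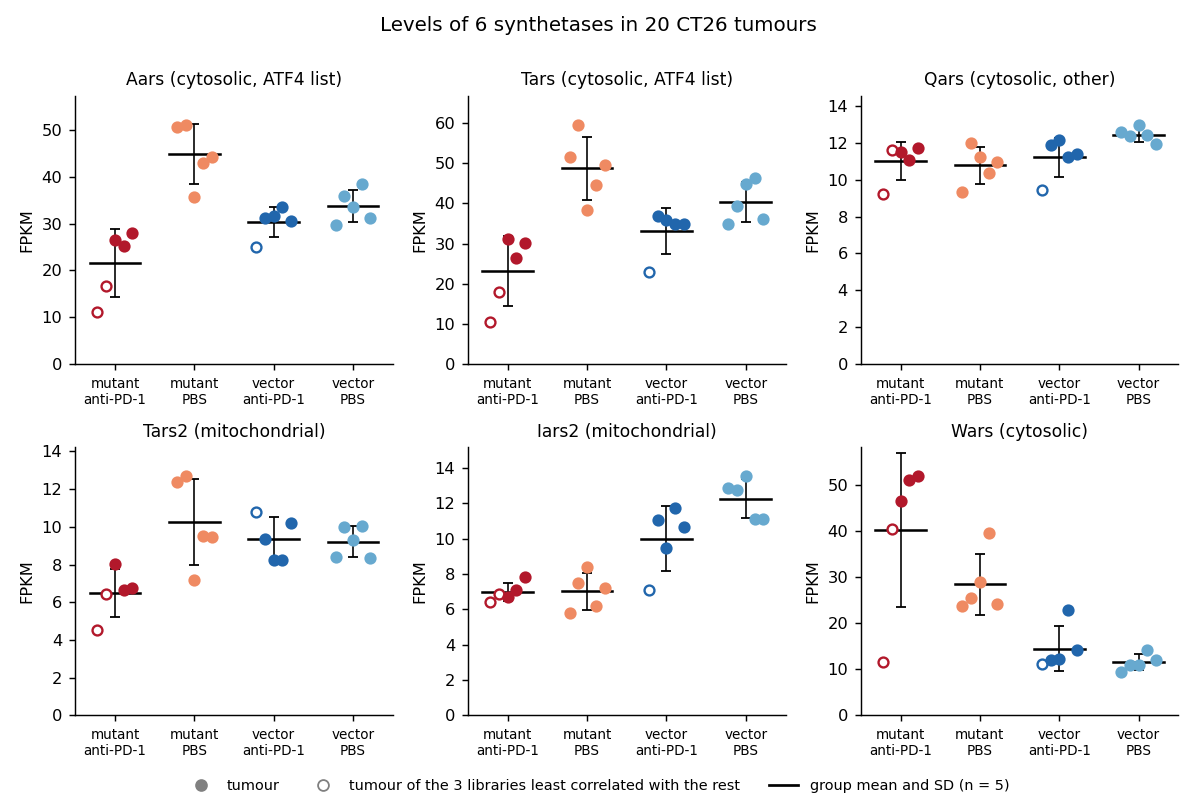
FPKM of 6 synthetases in each of 20 tumours, by group from left to right as POLE-mutant with anti-PD-1, POLE-mutant with PBS, vector with anti-PD-1 and vector with PBS. Points are tumours, open points the 3 libraries least correlated with the rest, and bars the mean and SD. Aars and Tars have their lowest means in mutant anti-PD-1 tumours, Qars stays between 9.21 and 13.0 FPKM in all 20, Iars2 is low in both mutant groups, and Wars is high in both apart from 1 mutant anti-PD-1 tumour at 11.5 FPKM.

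The depth of the libraries is unknown because the files hold no counts. The libraries that stood apart were 3 of the 20: mutant anti-PD-1 replicates 1 and 2 and vector anti-PD-1 replicate 1 had mean Spearman correlations with the other libraries of 0.748, 0.835 and 0.776, against 0.8995 to 0.930 in the other 17. Small RNA genes held 8.40% of total FPKM in vector anti-PD-1 replicate 1 and 5.20% in mutant anti-PD-1 replicate 1, against 2.73% to 3.97% in the other 18. Vector anti-PD-1 replicate 1 also had 2.85% of its FPKM in mitochondrially encoded genes, against 6.43% to 11.11% in the other 19, and the highest FPKM total, 566913. The part of these differences in the results was not tested. All 3 carry animal identifiers that start with M, as 11 of the 20 do, and mutant anti-PD-1 has no other library of that style, so results are given with and without the 3. Pole, the labelled gene, averaged 3.94 ± 1.69 FPKM in mutant anti-PD-1, 5.22 ± 0.872 in mutant PBS, 7.51 ± 2.28 in vector anti-PD-1 and 8.62 ± 1.64 in vector PBS tumours (SD, n = 5). Between mutant and vector tumours Pole fell under anti-PD-1 (log2 fold change -0.93, limma adjusted p = 0.000963) and did not pass under PBS (-0.62, adjusted p = 0.12). Chek2 averaged 5.03 ± 1.32, 6.44 ± 1.34, 5.01 ± 1.34 and 6.43 ± 1.23 FPKM in the same groups.

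The first comparison set anti-PD-1 against PBS within POLE-mutant tumours and asks how the antibody treatment went with synthetase expression in that tumour type. Most cytosolic synthetases fell: 15 of 20 passed the threshold (limma, adjusted p under 0.05 over all tested genes) in the lower direction and 0 in the higher. Among mitochondrial synthetases 4 of 16 fell and 0 rose. Of all tested genes, 14.6% were called lower and 15.9% higher in this comparison. The median log2 fold change was -0.93 for cytosolic and -0.17 for mitochondrial members, beside -0.10 for all tested genes. Mean FPKM in anti-PD-1 tumours was 0.567 of that in PBS tumours for the median cytosolic member and 0.870 for the median mitochondrial one. In 12 of 13 amino acids with 1 gene of each kind the cytosolic gene had the lower log2 fold change, and the ratio of means gave 12 as well. Tryptophan was the exception. These classes were compared by counts and medians, without a test of the difference between them.

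All 11 ATF4-list members fell, with log2 fold changes from -1.21 for Lars to -0.69 for Yars and ratios of mean FPKM from 0.476 to 0.581. Aars, the alanyl enzyme (ENSMUSG00000031960, chromosome 8, 111033144 to 111057664 of mm10), measured 11.2, 16.6, 26.5, 25.2 and 28.0 FPKM in the 5 mutant anti-PD-1 tumours, against 50.7, 51.2, 35.6, 42.9 and 44.2 in the 5 mutant PBS tumours. Its log2 fold change was -1.14 ± 0.18 (SE, adjusted p = 0.000154). Every anti-PD-1 tumour lay below every PBS tumour, with replicates 1 and 2 lowest. Tars, the threonyl enzyme (ENSMUSG00000022241, chromosome 15, 11382301 to 11399665), measured 10.5, 17.9, 31.1, 26.4 and 30.1 FPKM in mutant anti-PD-1 tumours, against 51.5, 59.7, 38.3, 44.7 and 49.5 in mutant PBS tumours. Its log2 fold change was -1.18 ± 0.21 (adjusted p = 0.000478). Replicates 1 and 2 were again lowest among the anti-PD-1 tumours, and the groups did not overlap. Mars1, the methionyl enzyme, measured 10.1, 17.5, 28.1, 27.6 and 27.8 FPKM in mutant anti-PD-1 tumours, against 43.8, 44.6, 34.8, 42.8 and 41.4 in mutant PBS tumours (log2 fold change -1.01 ± 0.20, adjusted p = 0.00104). Lars, the leucyl enzyme, fell by the most, at -1.21 ± 0.24 (adjusted p = 0.00107). Nars, Eprs and Yars, the asparaginyl, the glutamyl and prolyl, and the tyrosyl enzymes, changed by -0.91 ± 0.17, -0.996 ± 0.19 and -0.69 ± 0.14. The 8 cytosolic members with the smallest p, which are Aars, Rars, Tars, Nars, Eprs, Mars1, Lars and Yars, kept their calls in all 24 alternative fits. The remaining members of the list, Cars, Gars, Iars and Sars, fell by 0.95 to 1.10 on the log2 scale. In each of the 11 the anti-PD-1 tumours lay wholly below the PBS tumours, as did 13 of all 20 cytosolic members and 1 of 16 mitochondrial ones, beside 11.8% of tested genes.

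**Figure D2:**
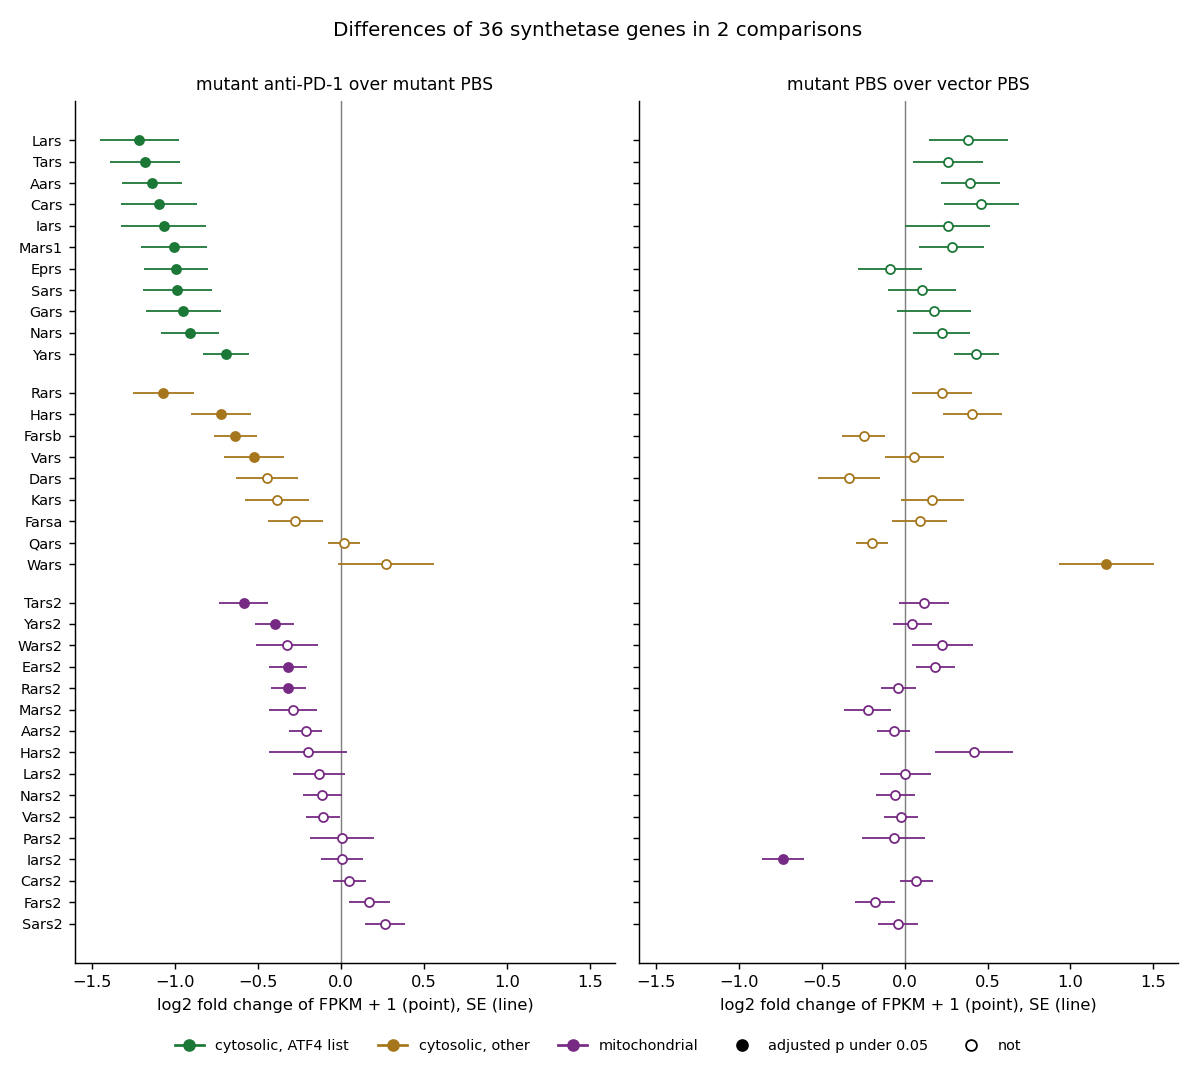
Log2 fold change with SE of all 36 synthetases on the log2(FPKM + 1) scale, for mutant anti-PD-1 over mutant PBS tumours on the left and mutant PBS over vector PBS tumours on the right, with filled points past the threshold of adjusted p 0.05. On the left 15 cytosolic and 4 mitochondrial members are filled, all below 0, and on the right Wars is filled above 0 and Iars2 below it.

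The other cytosolic members were more mixed. Of the 8 left after the ATF4 list and Wars, 4 fell: Rars (arginyl, log2 fold change -1.07 ± 0.18, adjusted p = 0.000341), Hars (histidyl), Farsb (a subunit of the phenylalanyl enzyme) and Vars (valyl). Rars measured 17.7, 31.8, 45.0, 43.2 and 46.2 FPKM in mutant anti-PD-1 tumours, against 74.2, 84.9, 56.7, 70.5 and 75.6 in mutant PBS tumours, so its groups did not overlap. Dars (aspartyl), Farsa (the other phenylalanyl subunit) and Kars (lysyl) had log2 fold changes of -0.45, -0.28 and -0.39 and did not pass. Qars, the glutaminyl enzyme, had the smallest change, 0.02 ± 0.10 (adjusted p = 0.901), at 9.21 to 11.7 FPKM in mutant anti-PD-1 and 9.34 to 12.0 FPKM in mutant PBS tumours. Qars also varied least among cytosolic members within groups, with a coefficient of variation of 8.04%. Of the 8 enzymes in the multisynthetase complex, 5 fell, and Dars, Kars and Qars did not pass. The 3 scaffold genes fell, with Aimp1 at -0.85 ± 0.17, Aimp2 at -0.92 ± 0.23 and Eef1e1 at -0.84 ± 0.18 (adjusted p = 0.00137, 0.00577 and 0.00217).

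The 4 mitochondrial synthetases that fell did so by less than any member of the ATF4 list. Tars2, the mitochondrial threonyl enzyme (ENSMUSG00000028107, chromosome 3, 95739976 to 95760206), measured 4.54, 6.44, 8.05, 6.64 and 6.78 FPKM in mutant anti-PD-1 tumours, against 12.4, 12.7, 7.20, 9.51 and 9.44 in mutant PBS tumours. Its log2 fold change was -0.59 ± 0.15 (adjusted p = 0.00672), and mutant anti-PD-1 replicate 3 lay above mutant PBS replicate 3. Yars2, the tyrosyl enzyme, changed by -0.40 ± 0.12 (adjusted p = 0.0159), at 3.22 to 4.05 FPKM in mutant anti-PD-1 and 4.37 to 6.33 FPKM in mutant PBS tumours, which do not overlap. Rars2 (arginyl) and Ears2 (glutamyl) changed by -0.32 ± 0.11 and -0.32 ± 0.12 (adjusted p = 0.0325 and 0.0457). Leaving out mutant anti-PD-1 replicate 1 or 2 ended the calls of Yars2 (adjusted p = 0.0584 and 0.0561), Rars2 (0.0997 and 0.0578) and Ears2 (0.137 and 0.0792), and Rars2 and Ears2 also lost theirs without 4 and 7 other libraries. The 12 mitochondrial members that did not pass ran from -0.33 for Wars2 (± 0.18, adjusted p = 0.195) to 0.27 for Sars2, the seryl enzyme. Among 13 genes of mitochondrial translation outside the synthetases 4 fell and 0 rose, with a median of -0.26. They were Gfm1, a mitochondrial elongation factor, at -0.63, Gatc, a subunit of the enzyme that forms glutaminyl-tRNA in the mitochondrion, at -0.52, Mrrf, a ribosome recycling factor, and Mtif3, an initiation factor. All 5 cytosolic elongation factor genes tested fell, with a median of -0.68.

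**Figure D3:**
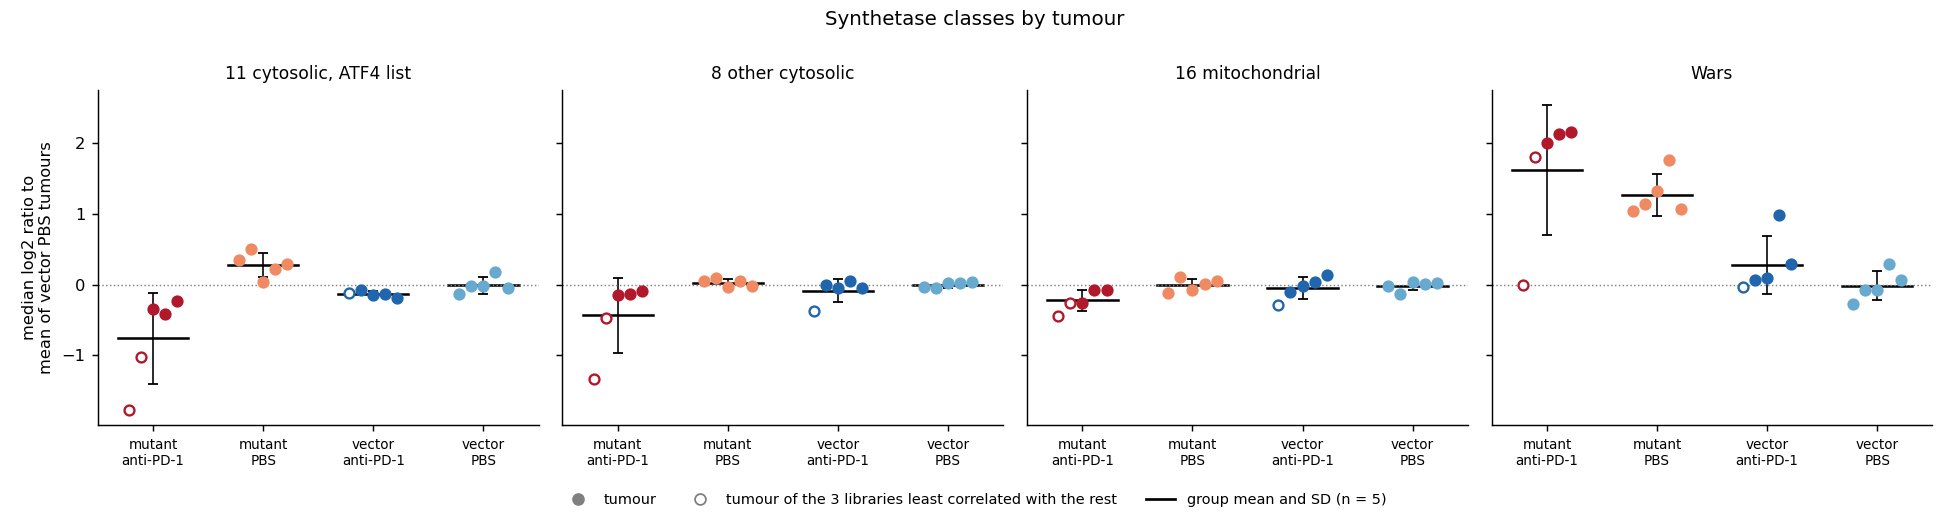
Median log2 ratio to the vector PBS mean per tumour for 11 ATF4-list cytosolic synthetases, 8 other cytosolic synthetases and 16 mitochondrial synthetases, and the ratio for Wars alone, by group, with open points for the 3 libraries least correlated with the rest. The ATF4-list median runs from -1.77 to -0.23 in mutant anti-PD-1 tumours and from 0.04 to 0.50 in mutant PBS tumours, and the mitochondrial median from -0.44 to -0.07 and from -0.12 to 0.11.

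Within the M-style libraries 16 cytosolic members and 1 mitochondrial member, Tars2, fell, with medians of -1.42 for cytosolic and -0.22 for mitochondrial members, beside 9.35% of tested genes called lower. Within the number-only libraries 14 cytosolic and 0 mitochondrial members fell and Wars rose, with medians of -0.47 and -0.08, beside 14.0% of tested genes called lower and 16.9% higher. Without the 3 libraries the cytosolic change was smaller and the mitochondrial calls ended. With 3 mutant anti-PD-1 tumours left, all 11 ATF4-list members fell, with a median log2 fold change of -0.57 and ratios of mean FPKM from 0.591 to 0.762. In all 14 cytosolic and 0 mitochondrial members were called lower, beside 9.96% of tested genes. Aars was at -0.72 ± 0.12 (adjusted p = 0.00117), Tars at -0.70 ± 0.14 (adjusted p = 0.00254) and Tars2 at -0.42 ± 0.16 (adjusted p = 0.0646). All 11 members of the list had groups that did not overlap, beside 14.5% of tested genes that were apart in the lower direction in these libraries. Dividing each library by its median ratio moved the median of all tested genes by 0.11 to 0.01. On that scale all 11 ATF4-list members fell with a median of -0.87, 14 cytosolic members fell in all (the 15 without Vars), and of the mitochondrial members Tars2 fell (-0.46, adjusted p = 0.044) and Sars2 rose (0.38, adjusted p = 0.0369), beside 9.03% of tested genes called lower and 19.5% higher. Of all genes called in this comparison 52.1% were higher with the values as deposited, 68.4% with median-ratio scaling and 41.0% with quantile normalization.

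Other ATF4-linked genes fell alongside the synthetases in mutant anti-PD-1 tumours. Of the 22 tested, 18 fell and 0 rose, with a median log2 fold change of -1.13. Trib3, a pseudokinase that ATF4 induces, measured 3.73, 4.93, 10.1, 8.54 and 7.80 FPKM in mutant anti-PD-1 tumours, against 54.9, 43.5, 15.8, 32.5 and 29.7 in mutant PBS tumours (-2.14 ± 0.29, adjusted p = 3.7e-05). Chac1, which breaks down glutathione, changed by -2.05 ± 0.28 (adjusted p = 3.89e-05). Atf5, a transcription factor related to ATF4, changed by -1.50, and Mthfd2, a mitochondrial folate enzyme, by -1.43. Without the 3 libraries apart 14 fell and 1 rose. The members of this list and of the cytosolic ATF4 list were chosen with earlier results of these tumours known.

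Markers of other cells moved with the same comparison. In bulk tissue, fewer cells of a type and less RNA per cell cannot be told apart. The summed level of 12 leukocyte markers was 1990 to 5082 FPKM in mutant anti-PD-1, 577 to 1320 in mutant PBS, 575 to 1417 in vector anti-PD-1 and 911 to 1230 in vector PBS tumours, and 10 of the 12 rose in mutant tumours with anti-PD-1. Adgre1, the macrophage marker F4/80, measured 147, 160, 70.4, 74.6 and 99.0 FPKM in mutant anti-PD-1 tumours, against 7.12, 14.9, 33.6, 12.8 and 12.0 in mutant PBS tumours. Its highest values were in replicates 1 and 2, where Aars and Tars were lowest. The 8 stroma markers summed to 303 to 2431 FPKM in mutant anti-PD-1 and 93.2 to 419 in mutant PBS tumours, with 7 of 8 risen. The high stroma sums, 2431 and 1551 FPKM, were in replicates 1 and 2, which are among the libraries apart. Replicates 3, 4 and 5, at 323, 368 and 303 FPKM, lay within the mutant PBS range. The 15 skeletal muscle markers summed to 106 to 1856 FPKM in mutant anti-PD-1 and 0.69 to 1208 FPKM in mutant PBS tumours, with medians of 363 and 3.27 FPKM. Of the 14 tested 1 rose past the threshold, and all 14 had positive log2 fold changes, with a median of 2.27. The 8 epithelial markers summed to 5.97 to 88.6 FPKM in mutant anti-PD-1 and 61.3 to 110 FPKM in mutant PBS tumours. Of these 8 markers 4 were tested and 1 fell. Krt18, an epithelial keratin, was the 1 that fell. It measured 0.572, 1.86, 7.26, 6.79 and 3.97 FPKM in mutant anti-PD-1 tumours, against 11.1, 8.63, 6.86, 8.39 and 11.9 in mutant PBS tumours. Krt20, a keratin with the highest mean level of the 8, did not pass. Its values were 4.16, 41.2, 80.7, 57.7 and 64.7 FPKM in mutant anti-PD-1 tumours, against 58.5, 82.1, 53.7, 63.6 and 93.6 in mutant PBS tumours. Cdx2, an intestinal transcription factor, was listed at 0 in every mutant anti-PD-1 tumour and in 4 of 5 mutant PBS tumours. In vector tumours of either treatment it ran from 0.227 to 0.863 FPKM, so its difference lay between tumour types, and it was below the filter and not tested. Of 12 cell cycle genes 5 fell. The part of these cells and genes in the synthetase result was not tested.

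Wars was compared with both classes across the 4 groups. Wars (ENSMUSG00000021266, chromosome 12, 108860030 to 108894174) measured 11.5, 40.6, 46.5, 51.1 and 52.0 FPKM in mutant anti-PD-1 tumours and 23.9, 25.5, 29.1, 39.6 and 24.3 in mutant PBS tumours. It measured 11.2, 12.1, 12.3, 23.0 and 14.1 FPKM in vector anti-PD-1 tumours and 9.51, 10.99, 10.99, 14.1 and 12.1 in vector PBS tumours. Means were 40.3 ± 16.7, 28.5 ± 6.54, 14.5 ± 4.84 and 11.5 ± 1.71 FPKM in the same groups (SD, n = 5). Every mutant PBS tumour lay above every vector tumour of either treatment, and 4 of 5 mutant anti-PD-1 tumours did too. The exception was replicate 1, at the level of vector tumours, where Aars and Tars were lowest as well. Relative to the median of the other 19 cytosolic synthetases in the same tumour, with both set to their vector PBS means, Wars was higher by 1.58 to 2.75 log2 units in mutant anti-PD-1, 0.72 to 1.62 in mutant PBS, 0.09 to 1.11 in vector anti-PD-1 and -0.17 to 0.17 in vector PBS tumours. On this measure all 5 mutant anti-PD-1 tumours lay above every vector tumour, and replicate 1, at 1.58, lay below 1 mutant PBS tumour, replicate 4.

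**Figure D4:**
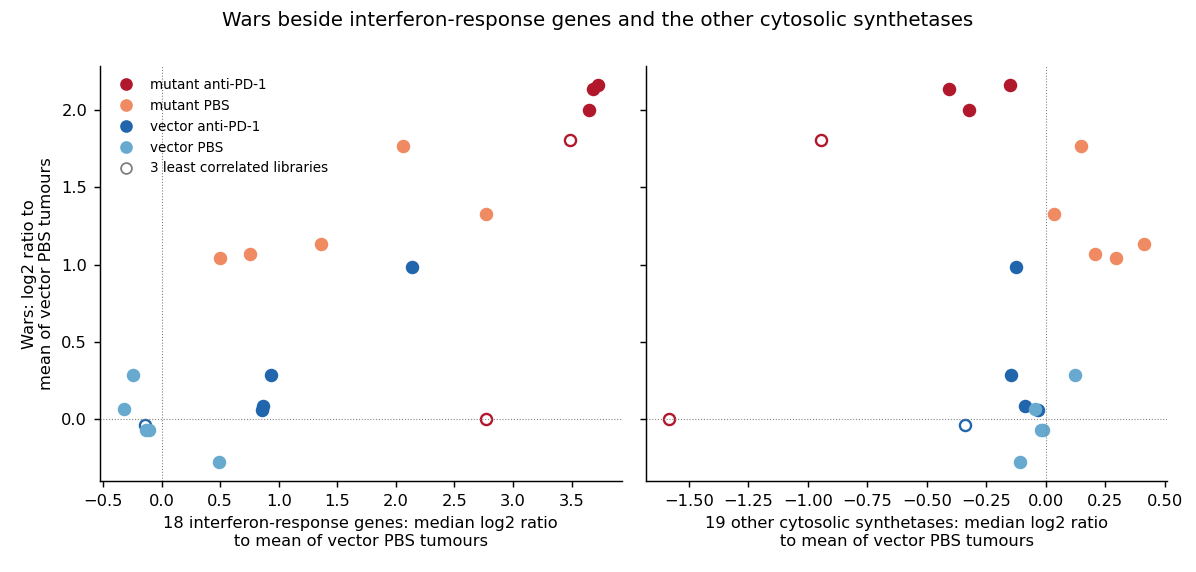
Wars in each tumour as log2 ratio to the vector PBS mean, against the median log2 ratio of 18 interferon-gamma genes on the left and of the other 19 cytosolic synthetases on the right, coloured by group. Wars reaches 2.16 in mutant anti-PD-1 tumours, where the interferon median is 2.77 to 3.73 and the other cytosolic synthetases lie below 0.

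In mutant tumours the antibody went with no called change of Wars when all libraries were used, at 0.27 ± 0.29 (adjusted p = 0.508). Without mutant anti-PD-1 replicate 1 the log2 fold change was 0.68 (adjusted p = 0.0157), and without all 3 libraries apart it was 0.75 ± 0.21 (adjusted p = 0.0196), with means of 49.8 ± 2.95 FPKM in 3 mutant anti-PD-1 and 28.5 ± 6.54 in 5 mutant PBS tumours. Wars was then the only synthetase called higher, beside 12.2% of tested genes. Wars2, the mitochondrial tryptophanyl enzyme, measured 2.26, 2.71, 2.70, 0.817 and 2.34 FPKM in mutant anti-PD-1 tumours, against 2.55, 3.21, 3.24, 2.75 and 2.62 in mutant PBS tumours, and did not pass. Of 18 other interferon-gamma genes 16 rose, with a median of 1.91.

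The comparison of mutant PBS with vector PBS tumours asks how synthetase expression differed without the antibody. Of the 36 synthetases 2 passed, Wars in the higher and Iars2 in the lower direction, beside 1.45% of all tested genes called in either direction. Wars was higher by 1.22 ± 0.29 (adjusted p = 0.0378), a ratio of mean FPKM of 2.46. Among libraries with M-style identifiers its log2 fold change was 1.24 (adjusted p = 0.486) and among the others 1.19 (adjusted p = 0.0425). With 1 library left out, the log2 fold change stayed between 1.15 and 1.33, and the call held without mutant PBS replicate 5 (adjusted p = 0.0391). It was lost without any 1 of the other 9 libraries of the groups compared (adjusted p = 0.0762 to 0.11). Iars2, the mitochondrial isoleucyl enzyme (ENSMUSG00000026618, chromosome 1, 185284726 to 185329396), measured 5.78, 7.52, 8.37, 6.22 and 7.20 FPKM in mutant PBS tumours, against 12.9, 12.7, 13.5, 11.1 and 11.1 in vector PBS tumours. Its log2 fold change was -0.73 ± 0.13 (adjusted p = 0.00486), a ratio of means of 0.572, with no overlap. Within M-style libraries it was at -0.78 (adjusted p = 0.309) and within number-only libraries at -0.65 (adjusted p = 0.0345). Groups were apart in the lower direction for 5.74% and in the higher direction for 3.3% of tested genes. Yars came next by p, at 0.43 ± 0.14 (adjusted p = 0.16), and Wars2 was at 0.23 ± 0.18 (adjusted p = 0.762).

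The other cytosolic synthetases did not pass in this comparison, and 16 of the 20 cytosolic members had positive log2 fold changes. The median log2 fold change was 0.22 for cytosolic and -0.03 for mitochondrial members, beside 0.00 for all tested genes, and 10 of 11 ATF4-list members had positive values. None of 22 other ATF4-linked genes passed, with 21 positive and a median of 0.28. Trib3 had 0.76 ± 0.28 (adjusted p = 0.255). Without the 3 libraries apart, none of which belongs to these groups, the shared estimate of spread was smaller and 10 synthetases passed, beside 11.8% of tested genes. They were Aars, Cars, Hars, Hars2, Mars1, Wars and Yars in the higher and Dars, Iars2 and Qars in the lower direction, with Cars at 0.46 ± 0.10 (adjusted p = 0.00714) and Dars at -0.33 ± 0.06 (adjusted p = 0.00186). Hars and Hars2 overlap by 198 bases on opposite strands, and whether counting used strand is not given, so their values are uncertain. Of the 18 interferon-gamma genes 3 were higher in mutant PBS tumours, which were Ubd, Cxcl9 and Igtp, and all 18 had positive log2 fold changes with a median of 1.07. Mutant PBS replicates 1 and 5 had interferon medians of 0.50 and 0.76 log2 units over vector PBS and Wars at 1.04 and 1.07. Vector anti-PD-1 replicates 2, 3 and 5 had interferon medians of 0.86, 0.87 and 0.93 and Wars at 0.06, 0.09 and 0.29. Replicates 1 and 4 of that group had -0.14 and 2.14, with Wars at -0.04 and 0.99. Mutant PBS replicates 2, 3 and 4 had interferon medians of 1.36, 2.77 and 2.06 and Wars at 1.14, 1.325 and 1.77. In mutant anti-PD-1 replicate 1 the interferon median was 2.77 and Wars was at 0.0. The part of interferon in the Wars difference was not tested.

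Mutant tumours were also compared with vector tumours under anti-PD-1. In that comparison 18 synthetases were lower, 13 cytosolic and 5 mitochondrial, and Wars alone was higher, beside 15.1% of tested genes called lower and 17.8% called higher. Of all genes called 54.1% were higher, against 64.2% with median-ratio scaling and 39.1% with quantile normalization, which moved the median of all genes by -0.13. Wars was higher by 1.22 ± 0.29 (adjusted p = 0.00373), a ratio of means of 2.77. Farsb, a subunit of the phenylalanyl enzyme, had the smallest p among those lower, at -0.80 ± 0.13 (adjusted p = 0.000193). It measured 11.4, 16.2, 20.3, 17.6 and 21.3 FPKM in mutant anti-PD-1 tumours, against 26.4, 31.9, 29.4, 30.5 and 29.985 in vector anti-PD-1 tumours, with no overlap. Sars (seryl), Eprs, Mars1, Rars, Aars and Vars changed by -0.84, -0.79, -0.73, -0.67, -0.60 and -0.56 (adjusted p = 0.00478 to 0.0238). The mitochondrial members were Iars2 (-0.44 ± 0.13, adjusted p = 0.0126), Tars2 (-0.49 ± 0.15), Aars2 (-0.33 ± 0.10), Yars2 (-0.34 ± 0.12) and Mars2 (-0.41 ± 0.14). Wars2 was at -0.07 ± 0.18 and did not pass. Leaving out mutant anti-PD-1 replicate 1 or 2 left 8 synthetases called each time, and leaving out vector anti-PD-1 replicate 4 left 11. Aars lost its call without mutant anti-PD-1 replicate 1 or 2, Vars without these or vector anti-PD-1 replicate 4, Tars2 without mutant anti-PD-1 replicate 1 and Aars2 without mutant anti-PD-1 replicate 2. Yars2 lost its call without mutant anti-PD-1 replicate 1 or 2 or vector anti-PD-1 replicate 3 or 4, and Mars2 without any of 8 libraries, while Farsb and Eprs kept theirs in all 24 alternative fits. Within M-style libraries 14 cytosolic members and 1 mitochondrial member were lower, beside 11.6% of tested genes called lower, and Wars was at 0.55 (adjusted p = 0.404). Within number-only libraries 3 cytosolic and 2 mitochondrial members were lower, beside 22.9% of tested genes called in either direction, with Farsb at -0.57 (adjusted p = 0.00551) and Wars at 1.84 (adjusted p = 0.000501). In 5 cytosolic and 1 mitochondrial member the mutant group lay wholly below the vector group, beside 7.83% of tested genes. Without the 3 libraries apart 7 were called, beside 23.2% of tested genes in either direction. Farsb (-0.61), Eprs (-0.51), Dars (-0.48), Mars2 (-0.45) and Iars2 (-0.44) were lower, and these 5 are the synthetases on chromosome 1. Wars (1.63 ± 0.21, adjusted p = 0.000263) and Hars2 (0.39) were higher. Of those named above Sars, Mars1, Rars, Aars, Vars, Tars2, Aars2 and Yars2 no longer passed. Of the leukocyte markers 9 of 12 were higher in mutant anti-PD-1 than in vector anti-PD-1 tumours, and of the stroma markers 5 of 8. The stroma sums were 2431 and 1551 FPKM in mutant anti-PD-1 replicates 1 and 2. In replicates 3, 4 and 5 they were 323, 368 and 303 FPKM, within the 134 to 460 FPKM of vector anti-PD-1 tumours. The part of these markers in the result was not tested.

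In vector tumours, limma called for anti-PD-1 over PBS 0 synthetases and 0 of all genes (0.0%), with 426 genes, or 3.05%, at an unadjusted p under 0.05. The median log2 fold change was -0.12 for cytosolic and -0.02 for mitochondrial members, beside -0.08 for all tested genes. Iars2 had the smallest p of the 36, at -0.28 ± 0.12, with 7.11, 11.1, 9.49, 11.7 and 10.6 FPKM in vector anti-PD-1 tumours, against 12.9, 12.7, 13.5, 11.1 and 11.1 in vector PBS tumours. Those groups overlap. Lars2 (leucyl) at -0.26 and Eprs at -0.30 came next, Wars was at 0.27 ± 0.29 and Wars2 at -0.03 ± 0.18, each with an adjusted p of 0.724 or more. All 18 interferon-gamma genes had positive values with a median of 0.64, and none passed. Vector anti-PD-1 replicate 4 had the highest interferon median of that group, 2.14 log2 units over vector PBS, and the highest Wars, 23.0 FPKM.

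The response to anti-PD-1 was compared between mutant and vector tumours by the interaction term. By this term 6 cytosolic and 0 mitochondrial synthetases had a lower response in mutant tumours, and 0 a higher one, beside 1.95% of tested genes called lower and 7.4% higher. Of the genes called 79.1% were higher, against 85.8% with median-ratio scaling and 59.9% with quantile normalization, which moved the median of all genes by -0.12. They were Aars (-0.99 ± 0.25, adjusted p = 0.021), Yars (-0.85 ± 0.20, adjusted p = 0.0129), Mars1 (-1.02 ± 0.28, adjusted p = 0.0296), Rars (-0.90 ± 0.26, adjusted p = 0.0382), Cars (-1.10 ± 0.32, adjusted p = 0.041) and Sars (-0.95 ± 0.29, adjusted p = 0.0481). Of the 6, 5 belong to the ATF4 list. Within M-style libraries 9 cytosolic members had a lower response, beside 1.59% of tested genes, and within number-only libraries 1 did, Mars1, beside 2.09%. Medians were -0.73 for cytosolic and -0.05 for mitochondrial members, beside 0.01 for all tested genes. Of the scaffold genes Aimp1 (-0.94) and Aimp2 (-1.11) passed, and 7 of 22 other ATF4-linked genes were lower. Wars was at -0.00 ± 0.41 and Wars2 at -0.30 ± 0.26. Without the 3 libraries apart Aars (-0.64, adjusted p = 0.0446) and Mars1 (-0.49, adjusted p = 0.0378) passed, beside 0.608% of tested genes called lower. With 1 library left out the count of synthetases called ran from 1, without mutant anti-PD-1 replicate 2, to 11, without vector anti-PD-1 replicate 1, and was 10 without mutant anti-PD-1 replicate 5. It was 2 without mutant PBS replicate 1 or 2 or vector PBS replicate 3, 4 or 5, and 3 without mutant PBS replicate 5, vector PBS replicate 1 or vector anti-PD-1 replicate 2 or 4. Among leukocyte markers 7 of 12 had a higher response in mutant tumours, and their part in this result was not tested.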

How the data were processed

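RNA from 20 CT26 tumours, extracted with Trizol per the labels' protocols, was sequenced as total RNA. FastQC, STAR 2.5, Cuffnorm and the mm10 build are named, per the submitters' processing notes, and no annotation, strand setting or treatment of multi-mapping reads is given in the sources used here. The deposited values are taken as FPKM because the authors used Cuffnorm, per the submitters' processing notes, and because of their range, and 10 empty columns in 1 deposited file were not used. Library totals ran from 328740 to 566913 FPKM. No whole-read step was recovered from low values, so depth and counting error are unknown.

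Identifiers were matched to GENCODE vM21, which names 55154 of the 55335 genes, and all 154 listed genes were found. No pair of libraries held identical values. Groups and identifier styles (11 starting with M, 9 numbers alone) came from the sample titles. The authors' deposited FPKM were put on a log2 scale with a pseudocount of 1 and fitted with limma 3.58.1 in R 4.3.3, with intensity trend, 4 group means and a term for identifier style, over genes that reached 1 FPKM in 5 or more libraries. P-values were adjusted by Benjamini-Hochberg over all 13982 tested genes at 0.05. The fit was checked on simulated data with noise drawn independently for each gene and library. That check cannot cover libraries that stand apart or shifts that genes share. Style had 6 genes past the threshold, and 2982 of the 13982 tested genes had an unadjusted limma p under 0.05 for it. Tables and figures used Python 3.11.15, numpy 2.4.6, pandas 2.3.3 and matplotlib 3.10.9.

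Full statistics are given for Wars, Wars2, up to 8 cytosolic and 8 mitochondrial members past the threshold by smallest p, the 3 smallest p where fewer than 3 passed, and up to 4 genes of each other list. The members and lists were chosen with earlier results of these data known. Alternatives changed the pseudocount, filter, scaling, trend, weights, covariates and libraries.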

Additional observations from a re-analysis of the deposited data

Results flagged for a closer look

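The response to anti-PD-1 differed between mutant and vector tumours, by limma's interaction term, for 6 synthetases: Aars (-0.99), Cars (-1.10), Mars1 (-1.02), Rars (-0.90), Sars (-0.95) and Yars (-0.85), each a difference of log2 fold changes. Yars kept its call without any single library, and Aars lost it without mutant anti-PD-1 replicate 2 (adjusted p = 0.0506). Over the 33 alternative fits, leaving out a library included, Yars and Aars each lost their call in 2, Mars1 in 7, Rars in 16, Cars in 20 and Sars in 22.

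In 10 of 144 sets of a gene and a group (6.94%) the highest or lowest tumour stood apart from the other 4, its gap to the nearest relative to the range of the group being above Dixon's 95% critical value. That value passes about 1 in 20 sets by chance, and the sets are not independent, since all 36 genes come from the same libraries. Vector anti-PD-1 replicate 1, one of the 3 libraries least correlated with the rest, accounts for 4 of them, with Cars at 29.2, Dars at 13.5, Tars at 23.0 and Lars2, the mitochondrial leucyl enzyme, at 0.0988 FPKM. Mutant anti-PD-1 replicate 1, another of the 3, accounts for 2, with Wars at 11.5 and Qars at 9.21 FPKM, both the lowest of their group. Wars stood highest in vector anti-PD-1 replicate 4, at 23.0 FPKM, where the interferon-gamma genes were highest in that group too. Kars was at 51.5 FPKM in mutant PBS replicate 1, Ears2 at 1.55 FPKM in mutant PBS replicate 3 and Wars2 at 0.817 FPKM in mutant anti-PD-1 replicate 4.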

How the results depend on the processing

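For anti-PD-1 against PBS in mutant tumours, 15 to 24 synthetases were called in the 24 alternative fits, against 19 (15 to 19 with 1 library left out). All genes called ran from 2585 with a muscle term (18.5% of tested genes) to 6460 with sample weights (46.2%), against 4271 (30.5%). With the muscle term Yars2, Rars2 and Ears2 lost their calls. In vector tumours 0 synthetases were called in all 24, and 0 to 5 of all genes. For mutant against vector tumours under PBS, 2 synthetases were called, beside 1.45% of all tested genes. This was 0 among M-style libraries (0.0858% of all tested genes), 1 with a muscle term (1.04%), and 1 with no filter or with no style term. It was 5 with only the groups compared, 13 with sample weights (19.4%) and 10 without the 3 least correlated libraries (11.8%). It was 1 to 2 with 1 library left out. All genes called ran from 12 to 2710, against 203. Under anti-PD-1, 19 synthetases were called, beside 32.9% of all tested genes. This was 7 among number-only libraries (22.9% of all tested genes), 7 without the 3 least correlated libraries (23.2%) and 3 with only the groups compared. It was 12 with sample weights (36.8%), 8 with a muscle term (23.9%) and 8 to 20 with 1 library left out. All genes called ran from 2343 to 6398, against 4601. For the interaction 6 were called, beside 9.35% of all tested genes. This was 2 with no filter, 2 without the 3 libraries (2.77% of all tested genes), 3 with no style term and 3 with a muscle term (7.95%). It was 1 among number-only libraries (8.32%), 11 with sample weights (23.0%) and 1 to 11 with 1 library left out. All genes called ran from 387 to 3214, against 1308. The causes were not tested. Sign changes were seen in values that did not pass. Wars in mutant tumours with anti-PD-1 was at -0.24 among M-style libraries, against 0.27. Wars2 in mutant against vector tumours under anti-PD-1 was at 0.17 among M-style libraries and -0.16 to 0.11 with 1 library left out, against -0.07. Wars2 in vector tumours with anti-PD-1, at -0.03, was at 0.03 with median-ratio scaling, 0.02 among number-only libraries, 0.08 with quantile normalization, 0.07 with sample weights or without the 3 libraries, and -0.13 to 0.07 with 1 library left out. The interaction of Wars, at -0.00, was at -0.69 among M-style libraries, 0.05 with median-ratio scaling, 0.08 with no style term, 0.65 among number-only libraries, 0.01 with quantile normalization, 0.37 with sample weights, 0.42 without the 3 libraries and -0.13 to 0.41 with 1 library left out. No paired analysis was possible because the animal identifiers differ between the groups and replicate numbers only follow the order of deposition. The files hold no counts, so what depth limits is unknown. Values of paralogous or overlapping genes, such as Hars and Hars2, depend on read assignment that is not given.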

Other observations

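Members on chromosome 1 were looked at after the low values of Iars2 were seen. The 5 synthetases there are Dars, Eprs, Farsb, Iars2 and Mars2, and the genes of Iars2 and Eprs lie 33647 bases apart in mm10. In mutant PBS against vector PBS tumours all 5 had negative log2 fold changes, from -0.73 to -0.09 with a median of -0.25, and 1 passed. Of the 31 members on other chromosomes 8 were negative, with a median of 0.17. Among all 871 tested genes of chromosome 1, 648 (74.4%) were negative, with a median of -0.18, 27 called lower and 0 called higher, beside 48.1% negative and a median of 0.01 on the other chromosomes. In mutant against vector tumours under anti-PD-1 all 5 were called lower, with a median of -0.51, as were 13 of the 31 members on other chromosomes. Of all tested genes 219 of 871 on chromosome 1 and 1893 of 13111 on the others were called lower. Without the 3 least correlated libraries, the 5 synthetases of chromosome 1 were the only ones called lower in that comparison. In vector tumours, anti-PD-1 against PBS also gave 5 of 5 negative values, with a median of -0.27 and none called, where 18 of the 31 other members, 66.2% of chromosome 1 genes and 63.0% of genes on other chromosomes were negative.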
